A study of Mus musculus with 4 samples.

Results

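The C/EBP family was followed across every cell class of dissociated mouse lung tumors. Its 7 genes, Cebpa, Cebpb, Cebpd, Cebpe, Cebpg, Cebpz and Ddit3, were taken by symbol from the 31055 features of the count matrix, and all 7 were found. Droplet-based 3′ single-cell RNA-seq had been performed on viable cells sorted only for exclusion of DAPI, so that epithelial, endothelial, stromal and immune cells were all captured. All mice were female and carried Lkb1XTR/XTR and Rosa26LSL-tdTomato. Cre from a lentivirus, delivered into the trachea, turns on tdTomato and traps Lkb1, and tumors then grew for 16 weeks. Both groups received tamoxifen in 4 mg doses for the last 2 weeks. The 2 Restored mice also carried the Rosa26 FLPo-ERT2 allele, through which tamoxifen releases Lkb1, and the 2 Non-Restored mice did not.

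The deposited matrix pools the cells of the 4 mice with no label that ties a cell to a mouse. It was therefore treated as 1 sample. No comparison of Restored with Non-Restored cells was made, no test over mice was possible, and a difference between cell classes cannot be told apart from unequal shares of the mice in those classes. Each level is given as CPM, the unique molecular identifiers (UMIs, counted RNA molecules) of a gene divided by all UMIs of its class and rescaled to the same sum in every class, with an exact Poisson 95% interval. Where no UMI was counted, the limit stated is the level that 3 UMIs would give. Ratios carry exact conditional 95% intervals. All intervals cover counting error only, and a member was called different between cell groups when the log2 ratio, with 10 CPM added to both sides, was at or beyond 1 (2-fold). Genes with at least 50 CPM on either side were compared, and a gene that reached this minimum in 1 group alone could only come out higher in that group.

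C/EBP proteins are basic leucine zipper transcription factors that bind DNA as dimers, with each other or with other zipper proteins. C/EBPα, C/EBPβ, C/EBPδ and C/EBPε activate transcription: the first is needed for granulocyte formation and for alveolar type II (ATII) cell maturation, the next 2 respond to inflammatory signals, and C/EBPε drives the late steps of granule formation. C/EBPγ lacks a strong activation domain and acts as a dimer partner, and Ddit3 encodes CHOP, a partner induced by the integrated stress response. Cebpz shares the name but not the zipper, and encodes a CCAAT-binding protein of the nucleolus related to the yeast ribosome-assembly factor Noc1.

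The 7 genes lie on 6 chromosomes of the mm10 build. Cebpa (chr7:35119293-35121928, plus strand) and Cebpg (chr7:35046422-35056573, minus strand) are neighbors, with 62719 bases between them. Cebpb is at chr2:167688915-167690418 (plus), Cebpd at chr16:15887286-15891031 (plus), Cebpe at chr14:54710360-54712174 (minus) and Ddit3 at chr10:127290774-127296288 (plus). Cebpz (chr17:78919006-78937066, minus) overlaps at its 3′ end with Cebpzos (chr17:78916500-78920306, plus), so its counts there depend on reads being assigned by strand.

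Upstream sequence is shown for Cebpb, the most abundant member, and for Cebpa. Among classes Cebpa had its own highest level in epithelial cells, not resolved from basophils or mast cells. Each run covers the 200 bases before the RefSeq start of the gene (GRCm38.p6), read along the gene, and capitals mark TGACG or its reverse complement, the core of a cAMP-response element, which ATF and CREB factors bind.

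Cebpb, chr2:167688715-167688914, plus strand: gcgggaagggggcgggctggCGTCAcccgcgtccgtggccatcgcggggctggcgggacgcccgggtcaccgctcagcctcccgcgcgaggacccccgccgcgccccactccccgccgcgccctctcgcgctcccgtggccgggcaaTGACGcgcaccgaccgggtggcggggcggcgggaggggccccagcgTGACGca

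Cebpa, chr7:35119093-35119292, plus strand: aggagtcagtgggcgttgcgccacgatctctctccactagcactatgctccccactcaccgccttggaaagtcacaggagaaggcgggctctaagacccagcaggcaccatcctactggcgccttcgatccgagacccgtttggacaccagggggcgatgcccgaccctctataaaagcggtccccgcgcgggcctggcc

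Cebpb held 3 matches to TGACG in the 250 bases before its start and Cebpa held 0, whereas 17.8% of all 32851 promoter windows of that length held at least 1. The C/EBP motif TTGCNNAA (N, any base, either strand) was in none of the 4 member windows given, those of Cebpa, Cebpb, Cebpg and Ddit3, and in 9.56% of all windows. A match is a description of the letters and not of binding.

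Of 20351 cells 19488 passed the filters, and their median depth was 1949.5 UMIs over 853 genes. A cell was given the class of which it held the most markers, out of 10 fixed for each of 16 classes, if it held at least 3 and more than of any other class; this placed 16450 cells (84.4%). At least 8 of 10 markers were detected in 10% or more of the cells of every class. The class gated with type 2 dendritic cell markers went against its name, since Flt3 was found in 10.3% of its cells and C1qa in 74.4%, and it is called Mgl2/Ccl17 myeloid here. Median depth ran from 911 UMIs in neutrophils to 5760.5 in type 1 dendritic cells, and free RNA was present: the surfactant gene Sftpc, at 91471 CPM in epithelial cells, was at 178 CPM in T cells.

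Cebpb was the most abundant member, with 45639 UMIs in the kept cells, followed by Cebpd with 10508, Cebpz with 5889, Cebpg with 3861, Cebpa with 2507, Ddit3 with 1455 and Cebpe with 125. The activating members spread over a wide range of levels among the 16 classes, while Cebpg, Cebpz and Ddit3 varied less. Between the highest and the lowest class Cebpb differed 56.4-fold, Ddit3 9.27-fold, Cebpg 4.26-fold and Cebpz 2.83-fold. The lowest Ddit3 class, type 1 dendritic cells at 7.62 CPM (2.08 to 19.5), rested on 4 UMIs, and the lowest Cebpg class, stromal cells, on 13 UMIs. When classes were ranked by level, the interval between neighboring ranks held 0 in 7 of 15 steps for Cebpb and for Cebpd, in 12 for Cebpa, in 14 for Cebpe and for Cebpg, and in all 15 for Cebpz and for Ddit3, so that the order of the last genes is not resolved step by step.

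**Figure D1:**
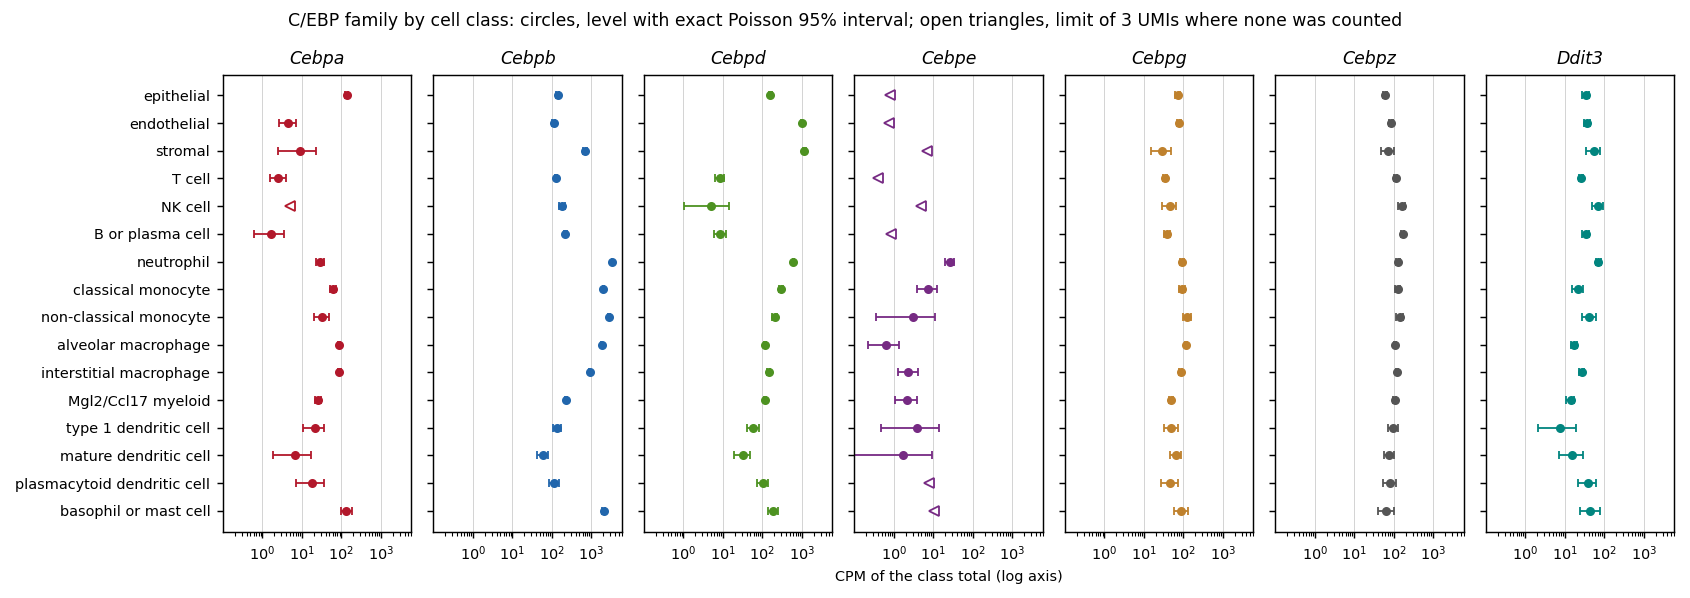
Level of each C/EBP family gene in the 16 gated cell classes, in CPM on a log axis, with exact Poisson 95% intervals; open triangles mark the limit that 3 UMIs would give where no UMI was counted. Cebpb is highest in neutrophils (3333 CPM), Cebpd in stromal (1146 CPM) and endothelial cells (1001 CPM), Cebpa in epithelial cells (136 CPM), and Cebpz lies between 59.9 and 170 CPM in all classes.

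Cebpa was highest in epithelial cells, at 136 CPM (125 to 149), and in basophils or mast cells, at 134 CPM (95.7 to 184), which rested on 39 UMIs. Macrophages followed, with 88.8 CPM (81.2 to 97.1) in interstitial and 86.9 CPM (81.1 to 92.9) in alveolar macrophages. These pairs were not resolved from each other: the log2 ratio was 0.02 (-0.45 to 0.53) between epithelial cells and basophils or mast cells, and -0.03 (-0.19 to 0.13) between alveolar and interstitial macrophages. Epithelial cells exceeded interstitial macrophages by a log2 ratio of 0.62 (0.44 to 0.80).

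Among monocytes and granulocytes Cebpa stepped down. Classical monocytes had 62.1 CPM, non-classical monocytes 32.9 and neutrophils 29.3, with a log2 ratio of -0.92 (-1.65 to -0.24) between the monocyte classes. Dendritic classes lay between 6.76 CPM in mature and 21.0 CPM in type 1 dendritic cells. Endothelial cells had 4.52 CPM, T cells 2.52 and B or plasma cells 1.66, and no Cebpa UMI was counted in 472 NK cells, which allows up to 4.98 CPM. After each cell was thinned to 1000 UMIs, a Cebpa UMI was found in 10.8% (8.85 to 13.1) of 867 epithelial cells and in 0.11% (0.03 to 0.28) of 3646 T cells, and the unthinned share in epithelial cells was 36.4%.

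Cebpb had its highest levels in neutrophils, at 3333 CPM (7740 UMIs), and in non-classical monocytes, at 2819 CPM. Basophils or mast cells (2056 CPM) and classical monocytes (2040 CPM) were not resolved from each other, alveolar macrophages had 1840 CPM, and interstitial macrophages had 925 CPM. These classes lay above stromal cells (704 CPM). The other classes ran from 235 CPM in Mgl2/Ccl17 myeloid cells, most of which held the macrophage transcript C1qa, down to 59.1 CPM in mature dendritic cells. Type 1 (139 CPM) and plasmacytoid dendritic cells (116 CPM) sat near T cells (125 CPM) in this ranking, whereas mature dendritic cells lay below all lymphocyte classes.

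Cebpb was found in most neutrophils, monocytes and alveolar macrophages and in a minority of lymphocytes, among cells with at least 1000 UMIs. Most neutrophils were shallower than this and are not covered. At 1000 UMIs a cell, it was counted in 88.4% of non-classical monocytes, 85.5% of neutrophils and 78.0% of alveolar macrophages, against 19.97% of B or plasma cells and 9.96% of T cells. T cells held 74.8 CPM of the neutrophil transcript S100a8 beside 125 CPM of Cebpb, neutrophils held 67272 CPM of S100a8 beside 3333 CPM of Cebpb and alveolar macrophages 175 CPM beside 1840 CPM. The part of free RNA in the T cell level was not tested. The level in B or plasma cells exceeded that in T cells by a log2 ratio of 0.83 (0.69 to 0.96).

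Cebpd had a different order, led by stromal cells at 1146 CPM (1049 to 1249.7) and endothelial cells at 1001 CPM (970 to 1033). Stromal exceeded endothelial cells by a log2 ratio of 0.19 (0.06 to 0.33), and both exceeded neutrophils, at 618 CPM. Classical monocytes had 299 CPM, epithelial cells 159 CPM and alveolar macrophages 115 CPM. T cells (8.37 CPM), B or plasma cells (8.56 CPM) and NK cells (4.98 CPM) were lowest. At 1000 UMIs a cell, Cebpd was counted in 52.0% of endothelial and 53.8% of stromal cells against 0.60% of T cells.

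Cebpe was nearly restricted to myeloid cells: 108 of its 125 UMIs were in gated myeloid cells, 0 were in gated cells of any other kind, and the others were in ungated cells. Neutrophils held 61 of these UMIs, at 26.3 CPM (20.1 to 33.7), and classical monocytes 12, at 7.30 CPM (3.77 to 12.8). Alveolar macrophages held 6 UMIs among 1755 cells, at 0.617 CPM. No UMI was counted in 3885 T cells or in 884 epithelial cells, which allows up to 0.399 and 0.803 CPM.

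The partner and stress members were more even. Cebpg was highest in non-classical monocytes, at 124 CPM (98.9 to 154), and in alveolar macrophages, at 118 CPM (111 to 125), and lowest in T cells, at 34.4 CPM, and stromal cells, at 29.2 CPM (13 UMIs). Ddit3 was at 70.6 CPM (60.2 to 82.3) in neutrophils and 68.1 CPM (48.9 to 92.4) in NK cells, and at 14.0 CPM in Mgl2/Ccl17 myeloid cells. NK cells exceeded T cells in Ddit3 by a log2 ratio of 1.39 (0.87 to 1.89). Cebpz, the nucleolar member, was highest in B or plasma cells, at 170 CPM (157 to 184), and lowest in epithelial cells, at 59.9 CPM (52.3 to 68.3), a log2 ratio of 1.503 (1.28 to 1.73).

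Relative use of the 4 activating members differed among epithelial, endothelial, stromal and phagocyte classes, but Cebpb dominated in lymphocytes as in phagocytes. Of the UMIs of Cebpa, Cebpb, Cebpd and Cebpe summed, epithelial cells drew nearly equal parts from Cebpa (31.1%), Cebpb (32.6%) and Cebpd (36.3%). In endothelial cells 89.6% came from Cebpd, and in stromal cells 61.6% came from Cebpd and 37.9% from Cebpb. In neutrophils, monocytes and macrophages Cebpb gave from 79.6% (interstitial macrophages) to 92.1% (non-classical monocytes). Lymphocytes were not set apart from these, with Cebpb at 92.0% in T cells, 95.6% in B or plasma cells and 97.4% in NK cells. Plasmacytoid dendritic cells were close to an even split of Cebpb (48.9%) and Cebpd (43.6%), on 94 UMIs.

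**Figure D2:**
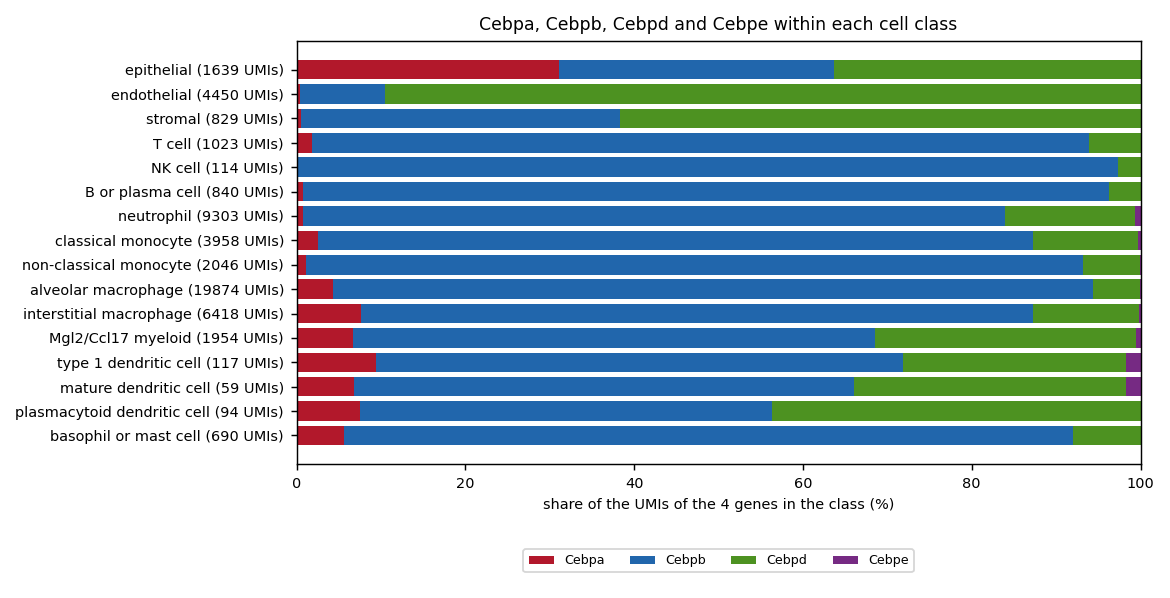
Share, in percent, of the UMIs of Cebpa, Cebpb, Cebpd and Cebpe that each gene contributes within each cell class; numbers in parentheses are the UMIs of the 4 genes together. Epithelial cells have near-equal parts of Cebpa, Cebpb and Cebpd, endothelial cells have 89.6% Cebpd, and Cebpb makes up most of the bar in phagocytes and lymphocytes.

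Myeloid cells were then set against lymphoid cells, since C/EBP factors are best known in the former. Cebpa was at 64.0 CPM in 7160 myeloid and 2.13 CPM in 6393 lymphoid cells (log2 ratio 4.91, 4.34 to 5.54). Cebpd was at 176 and 8.26 CPM (4.42, 4.13 to 4.72), Cebpb at 1414 and 158 CPM (3.16, 3.10 to 3.23), and Cebpg at 90.8 and 36.5 CPM (1.31, 1.16 to 1.46). All 4 were past 2-fold with myeloid cells higher, of 5 members compared, where 24.3% of the 3158 genes compared were past 2-fold in that direction and 9.09% in the other. Cebpa, Cebpd and Cebpg reached 50 CPM in myeloid cells alone, so their direction was fixed by the minimum. The fifth, Cebpz, was slightly lower in myeloid cells, at 111 against 132 CPM (log2 ratio -0.24, -0.33 to -0.15). Ddit3 (24.4 and 30.5 CPM) and Cebpe (4.02 and 0 CPM) were under the 50 CPM minimum.

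Genes known as targets of the family were also set side by side. Of 12 granule and secretory genes 8 were compared and were higher in myeloid cells, 4 of them at 50 CPM in myeloid cells alone. The 4 that reached 50 CPM in both groups were the calprotectin subunits S100a8 (6043 against 72.3 CPM) and S100a9 (5903 against 75.7 CPM), Lyz2 (9709 against 286 CPM) and Chil3 (9992 against 279 CPM). Of 12 inflammatory and acute-phase genes 7 were compared, and 6 of these reached 50 CPM in myeloid cells alone, among them Hp (haptoglobin) at 210 against 3.75 CPM and the prostaglandin synthase Ptgs2 at 174 against 5.45 CPM. The other, the cytokine gene Il1b, was at 2513 against 73.4 CPM. Of 5 regulators and related factors compared, 3 were higher in myeloid cells. These were Spi1, the myeloid factor PU.1 (413 and 30.3 CPM), Trib1, an adaptor for C/EBPα degradation (213 and 24.6 CPM), and Nfil3 (147 and 32.0 CPM). Batf was lower (32.4 and 76.9 CPM). Spi1, Trib1, Nfil3 and Batf each reached 50 CPM on 1 side alone, so their directions were fixed by the minimum. The 5 ribosome biogenesis genes compared around Cebpz were within 2-fold (median -0.57), as Cebpz was.

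**Figure D3:**
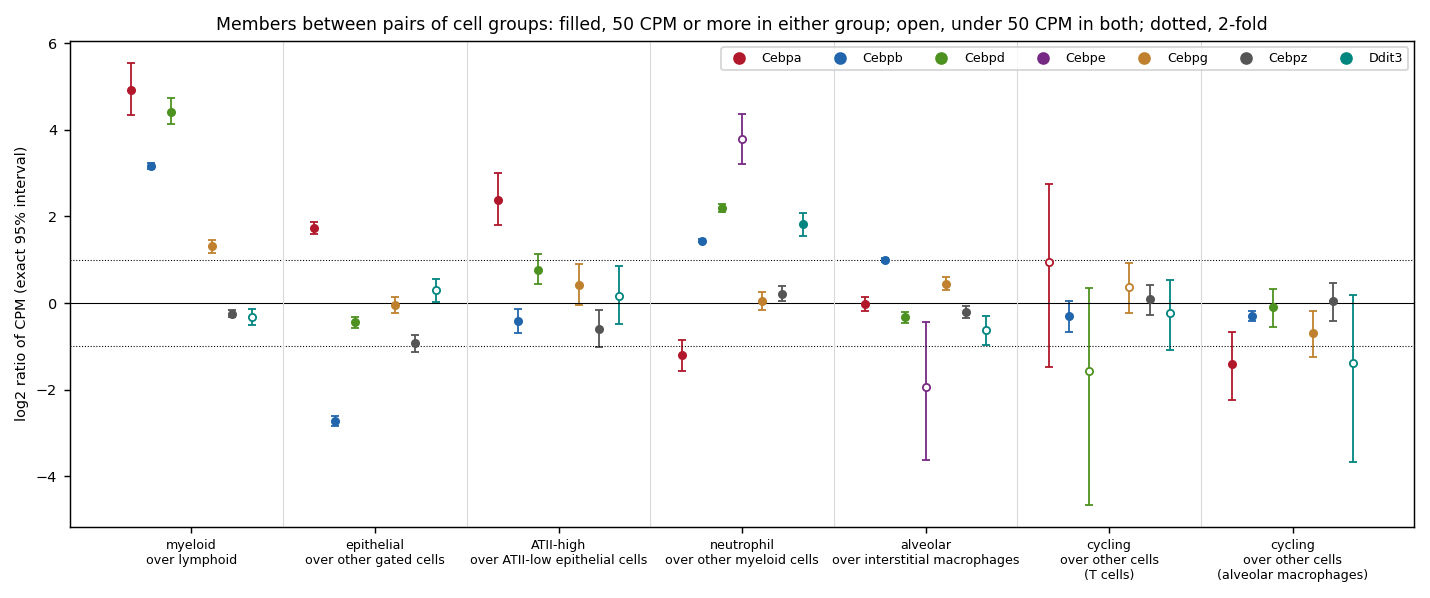
Log2 ratio of CPM of each C/EBP family gene in 7 comparisons of cell groups, with exact 95% intervals; dotted lines mark 2-fold, and open symbols mark genes under 50 CPM in both groups. Cebpa, Cebpb, Cebpd and Cebpg are higher in myeloid than in lymphoid cells, Cebpa is higher and Cebpb lower in epithelial than in other gated cells, and Cebpa is lower in cycling than in other alveolar macrophages.

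Within the myeloid compartment neutrophils had the most Cebpb, Cebpd and Ddit3 relative to all other myeloid cells. Cebpd was at 618 against 135 CPM (log2 ratio 2.20, 2.11 to 2.29), Ddit3 at 70.6 against 19.98 CPM (1.82, 1.56 to 2.08) and Cebpb at 3333 against 1232 CPM (1.44, 1.40 to 1.47). These 3 of 6 members compared were past 2-fold with neutrophils higher, where 19.4% of 3328 genes were (24.6% were lower). Ddit3 reached 50 CPM in neutrophils alone, so its direction was fixed by the minimum. Cebpa was lower, at 29.3 against 67.3 CPM (-1.20, -1.57 to -0.85), and fell just inside the 2-fold limit after 10 CPM was added (-0.98). Cebpg and Cebpz were within 2-fold, with log2 ratios of 0.05 and 0.22. Cebpe was at 26.3 against 1.92 CPM (3.78, 3.20 to 4.36), below the minimum. With a minimum of 500 genes per cell, which removes many neutrophils, the ratios with 10 CPM added were 1.23 for Cebpb, 1.85 for Cebpd and 1.03 for Ddit3, from 1.43, 2.12 and 1.43.

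Granule and secretory genes ran both ways. Of 9 compared, 7 were higher in neutrophils, and 5 of these reached 50 CPM in neutrophils alone. The 7 included S100a9 (66417 against 173 CPM), S100a8 (67272 against 245 CPM), Lcn2, the secondary-granule protein lipocalin 2 (2502 against 10.8 CPM), and Camp, the cathelicidin (1000 against 0.286 CPM). Chil3 (1155 against 10829 CPM) and lysozyme Lyz2 (4095 against 10240.5 CPM), which macrophages also express, were lower, and the Lyz2 ratio with 10 CPM added, -1.32, was smaller in size than that of Cebpb (1.43) or Cebpd (2.12). Among inflammatory genes 4 of 7 were higher and 2 lower. Hp was at 1926 against 47.8 CPM and Ptgs2 at 902 against 105 CPM. The chemokines Cxcl1 (12.1 against 164 CPM) and Ccl2 (10.3 against 145 CPM) were lower. Hp reached 50 CPM in neutrophils alone, and Cxcl1 and Ccl2 in the other myeloid cells alone.

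Genes of the integrated stress response did not all follow Ddit3. Of 7 compared, 2 were higher in neutrophils and 5 were within 2-fold. The higher genes were Ppp1r15a, which reverses eIF2α phosphorylation (288 against 82.4 CPM), and Sesn2 (72.8 against 16.8 CPM). Sesn2 reached 50 CPM in neutrophils alone, so its direction was fixed by the minimum. Those within 2-fold included Atf4, the upstream factor of the pathway (161 against 133 CPM), and Atf3 (470 against 722 CPM).

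Neutrophils were not uniform in the family. The split by UMIs of 3 secondary-granule transcripts, Ltf, Camp and Ngp, was chosen after the values were seen. The 45 neutrophils with 3 or more such UMIs had Cebpe at 171 CPM (108 to 257), from 23 UMIs in 6 cells with up to 9 in 1 cell, whereas the 1720 neutrophils with fewer had 17.4 CPM (12.3 to 23.8), a log2 ratio of 3.30 (2.49 to 4.08). Cebpb ran the other way, at 1688 against 3435 CPM (-1.02, -1.22 to -0.83), and Cebpd did as well, at 409 against 630 CPM (-0.62, -1.04 to -0.24). Cebpa rested on 1 UMI in the granule-rich cells. Median depth was 2377 UMIs in the granule-rich and 902 in the other neutrophils, and its part in these differences was not tested.

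Upstream sequence is shown for 5 of the 12 granule and secretory genes, which are known targets of the family, chosen because their windows hold the C/EBP motif. Each 52-base window (RefSeq, GRCm38.p6) is read along the gene, and capitals mark the 8 bases that match TTGCNNAA on either strand.

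Ltf (lactoferrin), chr9:111019195-111019246, plus strand: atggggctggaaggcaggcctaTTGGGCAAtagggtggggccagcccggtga

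Ngp (neutrophilic granule protein), chr9:110419648-110419699, plus strand: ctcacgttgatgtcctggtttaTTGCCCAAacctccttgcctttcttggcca

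Lcn2 (lipocalin 2), chr2:32387926-32387977, minus strand: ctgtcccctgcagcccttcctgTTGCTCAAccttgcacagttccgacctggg

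Mmp8 (neutrophil collagenase), chr9:7558377-7558428, plus strand: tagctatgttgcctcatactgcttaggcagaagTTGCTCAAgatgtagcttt

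S100a9 (calprotectin subunit), chr3:90695920-90695971, minus strand: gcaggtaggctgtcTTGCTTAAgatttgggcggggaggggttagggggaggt

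The match shown began 75 bases before the start of Ltf, 138 before Ngp, 216 before Lcn2, 19 before Mmp8 and 236 before S100a9. The 250 bases before Ngp held 2 matches, of which 1 is shown. In all, 5 of 12 windows of granule and secretory genes held the motif in the 250 bases before the start, and so did 4 of 7 windows of inflammatory genes (C3, Il6, Ptgs2 and Saa3), against 9.56% of all windows. None of the 10 windows of ribosome biogenesis genes held it. Camp and S100a8, both higher in neutrophils than Ltf (158 CPM), held no match in this window.

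**Figure D4:**
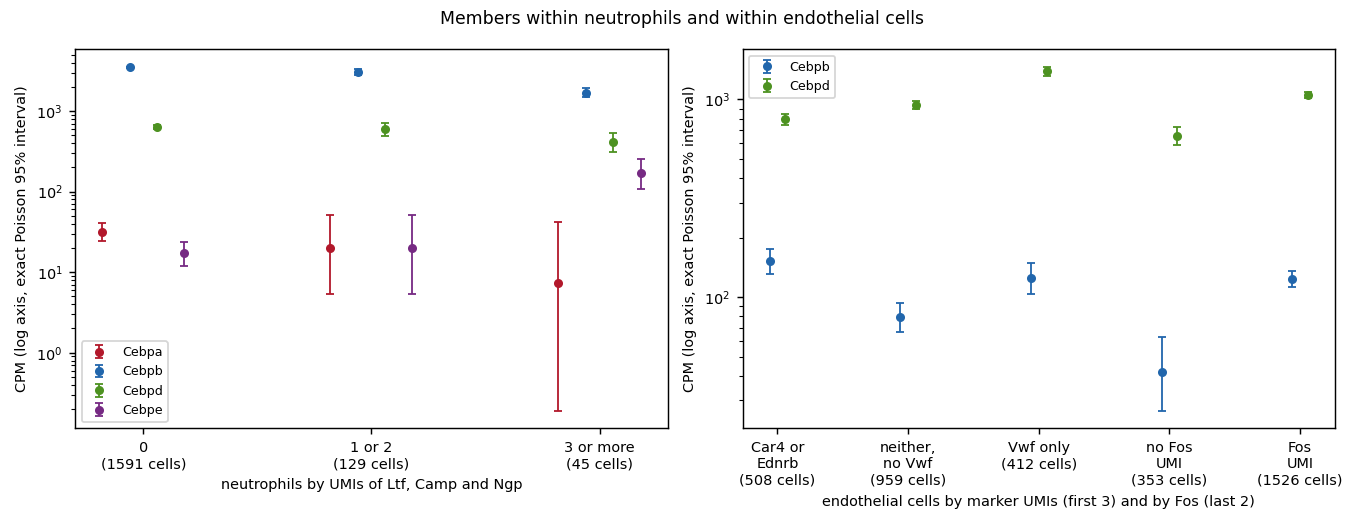
Left, CPM of the activating members in neutrophils with 0, 1 or 2, and 3 or more UMIs of the secondary-granule genes Ltf, Camp and Ngp; right, CPM of Cebpb and Cebpd in endothelial cells split by marker UMIs and by a Fos UMI (log axes, exact Poisson 95% intervals). Cebpe is at 171 CPM in the 45 granule-rich neutrophils against 17.1 CPM in those with none, and Cebpd is highest in Vwf endothelial cells at 1390 CPM.

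Alveolar macrophages were set against interstitial macrophages. None of 5 members compared was past 2-fold, where 22.2% of 3193 genes were past it in either direction (14.1% higher and 8.14% lower in alveolar macrophages). With so few members, this count cannot be told apart from that share. Cebpb came closest to 2-fold, at 1840 CPM in alveolar and 925 CPM in interstitial macrophages (log2 ratio 0.99, 0.95 to 1.04, and 0.98 with 10 CPM added). Cebpg was moderately higher in alveolar macrophages (0.45, 0.29 to 0.61). Cebpd (-0.33, -0.47 to -0.20) and Cebpz (-0.21, -0.35 to -0.07) were slightly lower. Only the interval of Cebpa held 0 (-0.03, -0.19 to 0.13). The inflammatory genes did not run with Cebpb here: 3 of 6 were lower in alveolar macrophages, with Ptgs2 at 9.25 against 141 CPM, Ccl2 at 55.8 against 439 CPM and Il1b at 491 against 2695 CPM, and only C3 was higher (104 against 32.4 CPM). C3 reached 50 CPM in alveolar macrophages alone, and Ptgs2 in interstitial macrophages alone. All 4 granule and secretory genes compared were higher in alveolar macrophages, led by Chil3 at 26105 against 128 CPM. Of these, 1 reached 50 CPM in alveolar macrophages alone.

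TdTomato transcripts were widespread in alveolar macrophages, at 2665 CPM against 143 CPM in interstitial macrophages and 5513 CPM in epithelial cells, and 1595 of 1755 cells held 3 or more. These cells had Cebpd at 120 CPM against 63.4 CPM in the 160 cells with fewer (log2 ratio 0.92, 0.51 to 1.36), Cebpb at 1862 against 1594 CPM (0.22, 0.14 to 0.31) and Cebpa at 85.0 against 108 CPM (-0.34, -0.67 to -0.00). This split was also chosen after the values were seen. When cells outside the epithelium with a TdTomato UMI were left out, Cebpd in alveolar against interstitial macrophages moved to a log2 ratio of -1.06 from -0.31 with 10 CPM added, past 2-fold. That step removed at least the 1595 alveolar macrophages with 3 or more, so the ratio rests on a small part of the class.

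Endothelial and stromal cells were the sites of the highest Cebpd, and the level varied within the endothelium. Cells with Car4 or Ednrb UMIs, markers of aerocyte-type capillaries, had 794 CPM (508 cells). Cells with Vwf but neither of these, which marks larger vessels, had 1390 CPM (412 cells), and the remaining 959 cells had 936 CPM. Vwf cells exceeded Car4 or Ednrb cells by a log2 ratio of 0.81 (0.69 to 0.93), while Cebpb was not resolved between them (-0.28, -0.63 to 0.06).

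The immediate-early gene Fos, a transcript known to rise during enzymatic dissociation, was at 2355 CPM in endothelial and 4048 CPM in stromal cells, against 537 CPM in T cells. Endothelial cells with a Fos UMI had Cebpd at 1057 CPM, and the 353 without had 653 CPM (log2 ratio 0.69, 0.54 to 0.85). Cebpb was also higher with Fos, at 124 against 41.7 CPM (1.57, 0.96 to 2.24). In stromal cells Cebpd was at 1240 CPM with and 311 CPM without a Fos UMI, the latter from 14 UMIs in 22 cells (2.00, 1.24 to 2.88). Cells without a Fos UMI were shallower (median 1416 against 1977.5 UMIs in the endothelium). The part of dissociation in the Cebpd levels was not tested.

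Epithelial cells, which include the neoplastic cells, were compared with all other gated cells. Cebpa was past 2-fold with epithelial cells higher, at 136 against 41.1 CPM (log2 ratio 1.73, 1.59 to 1.88). It was the 1 member of 5 compared to be so, where 15.7% of 3393 genes were. Cebpa reached 50 CPM in epithelial cells alone, so its direction was fixed by the minimum. Cebpb was past 2-fold with epithelial cells lower, at 143 against 943 CPM (-2.72, -2.85 to -2.60), where 23.5% of genes were. With 1 of 5 members in each direction, these counts cannot be told apart from those shares. Cebpd (159 and 217 CPM), Cebpg (71.7 and 74.1 CPM) and Cebpz (59.9 and 114 CPM) were within 2-fold. Of inflammatory genes 5 of 6 compared were lower and Hp was higher (601 against 135 CPM). The 5 lower genes reached 50 CPM in the other cells alone. Among regulators Nkx2-1, a lung epithelial factor that the gate itself used, and Atf5 (54.3 against 8.18 CPM) were higher. Spi1 (7.49 against 268 CPM) and Nfil3 (28.9 against 104 CPM) were lower. These regulators each reached 50 CPM on 1 side alone, so their directions were fixed by the minimum. Trib1 was within 2-fold (92.6 against 146 CPM).

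Epithelial cells varied in Cebpa along their ATII state. The 640 cells in which 10 ATII markers gave at least 5% of UMIs had 165 CPM (484 UMIs), and the 244 others had 32.1 CPM (26 UMIs), a log2 ratio of 2.37 (1.80 to 2.997). It was the only one of 5 members compared past 2-fold, where 6.25% of 2946 genes were past it with ATII-high cells higher and 9.74% with ATII-high cells lower. Cebpa reached 50 CPM in ATII-high cells alone, so its direction was fixed by the minimum. Cebpd was at 175 against 102 CPM (0.77, 0.44 to 1.13), Cebpb at 133 against 177 CPM (-0.41, -0.69 to -0.13) and Cebpz at 54.0 against 81.3 CPM (-0.59, -1.01 to -0.15). The interval of Cebpg held 0 (0.42, -0.04 to 0.91). Median depth was 4433 UMIs in ATII-high and 2758 in ATII-low cells. Chil3, abundant in alveolar macrophages, was at 59.1 CPM in ATII-high and 441 CPM in ATII-low cells. The 10 alveolar macrophage markers of the gate summed to 15.7 and 153 CPM. Of these, Plet1 gave 5.47 and 101 CPM, Ctsk 3.42 and 27.1 CPM and Atp6v0d2 3.08 and 13.6 CPM. Krt79, Fabp1 and Bhlhe41 were also higher in ATII-low cells, on few UMIs. Ear1 had 1 UMI in ATII-high and 0 in ATII-low cells, and Marco, Siglecf and Cidec were at 0 UMIs in both groups. The part of macrophage RNA in the Cebpb difference was not tested.

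Cebpa stepped up with the ATII marker share over 5 bins chosen after the values were seen. It was at 21.2 CPM (10.97 to 37.1) below 1%, 56.9 CPM between 1 and 5%, 108 CPM between 5 and 10%, 147 CPM between 10 and 15% and 188 CPM (168 to 210) at 15% or more. Cebpb was at 198 CPM in the lowest and 115 CPM in the highest bin, and Cebpd at 124 and 172 CPM without a steady course between. TdTomato was at 4403 CPM in the lowest bin and between 5684 and 5813 CPM in the other 4. The 5% limit was passed closely by many cells, since 154 of 884 had a share from 2 to 10%.

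Hopx, a marker of alveolar type I (ATI) cells, divided the ATII-high cells further. Cebpa was at 180 CPM in 498 ATII-high cells without and 109 CPM in 142 with a Hopx UMI (log2 ratio 0.72, 0.34 to 1.12), whereas Cebpd did not differ beyond its interval (-0.06, -0.37 to 0.26). Among ATII-low cells Cebpa was at 35.7 CPM without (12 UMIs) and 29.5 CPM with Hopx (14 UMIs), which was not resolved (0.28, -0.97 to 1.498). The share of Cebpa among the activating members accordingly ran from 37.7% in ATII-high Hopx-negative cells to 10.3% in both ATII-low groups, where Cebpb gave 55.6 and 58.1%.

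**Figure D5:**
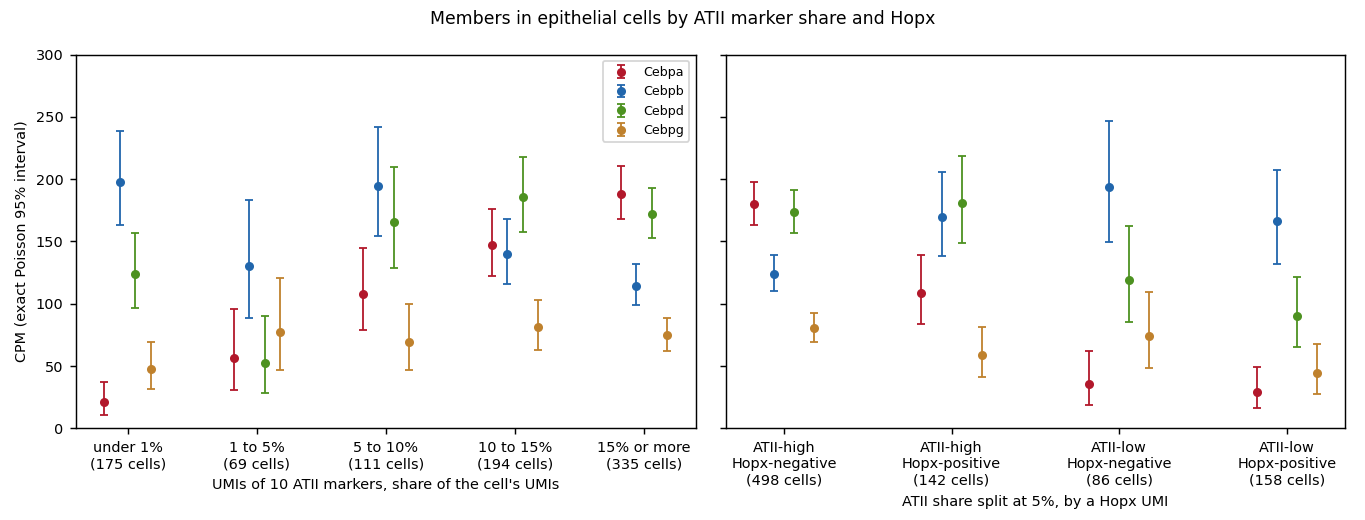
CPM of Cebpa, Cebpb, Cebpd and Cebpg in epithelial cells, with exact Poisson 95% intervals, left by the share of a cell's UMIs from 10 ATII markers and right by that share split at 5% and by a Hopx UMI. Cebpa steps up from 21.2 to 188 CPM across the bins of the left panel and is lowest in both ATII-low groups of the right panel.

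ATII genes outside the markers that defined the split were compared between the same ATII-high and ATII-low cells. A split on ATII markers favors such genes, and no relation of single genes to Cebpa was computed. Of 11 compared, 9 were past 2-fold with ATII-high cells higher (median log2 ratio with 10 CPM added 2.30, against -0.21 over all genes), led by the lipid-synthesis genes Scd1 (9493 against 439 CPM) and Fasn (645 against 59.2 CPM), the surfactant phospholipid enzyme Lpcat1 (845 against 101 CPM) and Lyz1 (72.1 against 1.23 CPM, the latter 1 UMI). Of the 9 higher genes, 2 reached 50 CPM in ATII-high cells alone. Of 7 ATI markers compared, 5 were lower, among them Hopx (118 against 882 CPM) and Akap5 (36.2 against 228 CPM). Akap5 reached 50 CPM in ATII-low cells alone. Nkx2-1 was within 2-fold, at 222 against 238 CPM. Of 7 stress response genes 1, the endoplasmic reticulum protein gene Herpud1 (182 against 81.3 CPM), was higher. Of 9 windows of these outside ATII genes, 4 held TTGCNNAA, those of Dram1, Il33, Lyz1 and S100g, against 9.56% of all windows. Of 9 windows of the ATII markers themselves 1 held it, that of Slc34a2, and of 12 windows of ATI markers 0 did.

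Cycling cells, those with at least 3 of 12 cell-cycle genes, were compared with other cells of their class in alveolar macrophages and in T cells. In 77 cycling alveolar macrophages Cebpa was at 33.8 CPM, against 89.4 CPM in the other 1678 (log2 ratio -1.40, -2.25 to -0.67), which rested on 15 UMIs. It was 1 of 5 members compared to be past 2-fold lower, where 1.58% of 3346 genes were. Cebpa reached 50 CPM in the other alveolar macrophages alone, so its direction was fixed by the minimum. Cebpg was lower within 2-fold (-0.69, -1.24 to -0.19), Cebpb slightly lower (1501 against 1856 CPM), and Cebpd and Cebpz had intervals that held 0. Spi1 was not lower in these cycling cells, at 491 against 383 CPM, and Trib1 was at 187 against 245 CPM. All 6 ribosome biogenesis genes compared were within 2-fold, with Ncl at 482 against 315 CPM.

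In T cells neither of the 2 members compared, Cebpb and Cebpz, was past 2-fold, where 16.7% of 2747 genes were past it in either direction. With so few members, this count cannot be told apart from that share. Cebpb was at 103 CPM in 118 cycling and 127 CPM in 3767 other T cells (log2 ratio -0.30, -0.68 to 0.05), and Cebpz was at 117 and 110 CPM. When cells were named by clusters in place of single-cell gates, Cebpb was instead higher in cycling T cells, with a log2 ratio of 1.08 with 10 CPM added, from -0.28.

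The genes whose levels most resembled each member over the 16 classes were listed by Pearson correlation of log2(CPM + 10) among 6156 genes that were neither members nor gate markers. The classes come from 1 pooled sample and share its depth and free RNA, so the correlations are descriptions. With 1 CPM added in place of 10, 10 of the 21 genes named were no longer among the first 3 of their member, including all 3 of Cebpe, 2 of Cebpa (Neat1 and Trf) and Fgd4 for Cebpb. Cebpb was most like Fgd4 (r = 0.91), the complement receptor gene C5ar1 (0.89) and the niacin receptor gene Hcar2 (0.89), with C5ar1 and Hcar2 highest in neutrophils. Cebpe was most like Tarm1 (0.94), Dhrs9 (0.93) and Mrgpra2b (0.93), all highest in neutrophils. Cebpd was most like Fndc3b (0.88), Tcn2 (0.88), the transcobalamin gene, and Ctdsp2 (0.86), highest in stromal or endothelial cells.

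Cebpa had looser neighbors, Atp13a3 (0.82), Neat1 (0.79) and the transferrin gene Trf (0.78). Cebpg was most like Noct (0.88), Sat1 (0.86) and Zfand2a (0.86), Cebpz most like Taf6l (0.90), BC005624 (0.84) and Shisa5 (0.81), and Ddit3 most like Kdm5b (0.88), Rnf2 (0.87) and Rb1cc1 (0.85). Among the members themselves Cebpa was closer to Cebpg (0.67) and Cebpb (0.56) than to Cebpd (0.37), and Cebpz correlated weakly with all others, between -0.40 with Cebpd and 0.30 with Cebpe.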

How the data were processed

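Per the study's methods, the authors aligned reads to mm10 with Cell Ranger (v3.0.2) and deposited 1 matrix of raw UMI counts, 58624795 UMIs in 20351 cells; no source used here states the annotation release. The 4 mice were not told apart, so all cells formed 1 sample, with no test and no comparison of Restored with Non-Restored mice.

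Cells with at least 200 genes and at or below the 98th percentile of genes (2713) and of mitochondrial share (13.4% over 13 genes) were kept. The percentiles the study used are not stated in its methods. Cells were gated by markers as described above (2435 cells with under 3 markers and 603 ties stayed ungated), raw UMIs were summed per class, and ratios with 10 CPM added were called at 2-fold for genes with at least 50 CPM on either side. Interval coverage was tested on simulated counts for the myeloid and lymphoid comparison (3158 genes, of which 200 were changed), where 94.9% of intervals held the true value. This concerns counting error alone and does not show that the intervals hold the spread between cells or mice. Doublets were kept. Scrublet (scanpy 1.11.5, expected rate 6%) marked 181 of 20299 cells (0.892%), and their removal was an alternative. Shares were thinned to 1000 UMIs, which left 752 of 1765 neutrophils. Python 3.11.15, numpy 2.4.6 and scipy 1.17.1 were used.

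Coordinates are from GENCODE (mm10) and upstream sequences from RefSeq (GRCm38.p6). Named genes were all 7 members, from each list up to 4 genes of largest ratio in the comparison described, with further list genes named after their values were seen, and 3 most similar genes per member. The members, gene lists and splits were chosen with earlier results of these data known. The study also excluded tdTomato-positive cells outside the epithelium, which was an alternative here. One further allele that all mice shared is not reported here.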

Additional observations from a re-analysis of the deposited data

Results flagged for a closer look

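The 3038 cells that no gate took stood outside every comparison and still held C/EBP transcripts. Cebpa was at 35.7 CPM and Cebpb at 702 CPM in them, above the levels of T cells (2.52 and 125 CPM). After thinning to 1000 UMIs a Cebpa UMI was found in 2.39% of ungated cells and 0.11% of T cells.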

How the results depend on the processing

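No paired analysis was possible because the cells are not tied to mice and the replicate numbers only follow accession order. Of 83 alternative values of the counts of members past 2-fold, of the highest class per member and of the Cebpa share, 69 equalled the reported value and 14 did not; 9 of these stayed within 1.5 times of it, 5 moved further and 0 reversed. Of 338 alternative values of single members 303 were unchanged within their interval, 35 moved and 0 reversed a called direction. With cells named by 29 clusters (94.1% of gated cells had the same name), 4 of 7 members kept their highest class: Cebpb and Cebpz were then highest in non-classical monocytes and Cebpg in alveolar macrophages, and 1 member in place of 0 was past 2-fold in cycling T cells (Cebpb). With TdTomato cells outside the epithelium left out, 1 member in place of 0 was past 2-fold in alveolar against interstitial macrophages (Cebpd, -1.06). That alternative removed most alveolar macrophages. The share of epithelial cells with a Cebpa UMI was 4.41% at 500 UMIs and 36.4% unthinned, since it follows depth. Without the cell filter Cebpa was highest in basophils or mast cells and Cebpd in endothelial cells, with each cell weighted equally Cebpa was highest in basophils or mast cells, and with a minimum of 500 genes or a gate of 4 markers Ddit3 was highest in NK cells. The alternative without Fos cells was chosen after seeing the data. The causes were not tested.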
